A study of Mus musculus with 6 samples.

Results

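The Slc2a genes encode the GLUT proteins, the carriers that let hexoses and related compounds cross cell membranes down their gradients. The genes described here are Slc2a1, Slc2a2, Slc2a3, Slc2a4, Slc2a5, Slc2a6, Slc2a8, Slc2a9, Slc2a10 and Slc2a12, which are 10 of the 19057 genes measured. They were chosen by gene symbol, and every array probe that the platform annotation pairs with one of these symbols was taken, which gave 19 of 45281 probes. Expression was compared between MIN6 cells at passage 23 (3 samples), an insulin-producing tumor line of the mouse that stands in for the pancreatic β-cell, and D3 cells at passage 21 (3 samples), a line of mouse ES cells, that is, embryonic stem cells. RNA of each sample was read on an array of its own, an Illumina Mouse WG-6 v2.0 BeadChip. The D3 cells were kept pluripotent with leukemia inhibitory factor on gelatin, whereas the MIN6 cells grew without it and with more serum, so that cell line, passage and medium cannot be told apart. Each group is a single cell line, and MIN6 is a tumor line, which limits both as models of their cell types. The passages are those of the labels, and the methods give a later range of passages for D3 cells. The methods call the samples of a line independent without saying whether they were separate cultures, so that the p-values may measure only technical spread.

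GLUT proteins are facilitative carriers, and each binds hexoses with its own affinity and is expressed in its own set of tissues. In rodent β-cells GLUT2, the product of Slc2a2, is known for a low affinity and a high capacity that let the rate of glucose entry follow the glucose concentration of the blood, while GLUT1 and GLUT3, of Slc2a1 and Slc2a3, serve a steady uptake at high affinity in many growing cells, in neurons and in the early embryo. GLUT4 moves from vesicles to the surface of muscle and fat cells when insulin is present, and GLUT5 carries fructose.

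The libraries did not go against their labels. The MIN6 arrays were lower for all 10 markers of pluripotent cells and higher for all 10 markers of β-cells, and 9 of the pluripotency markers were above background on no MIN6 array and all 10 β-cell markers on no D3 array (Nanog, Pou5f1, Ins2 and Pdx1 among them). Between 34.4 and 35.9% of the probes were above background on each array, at a detection p under 0.01. Of 11 fibroblast and feeder markers, 9 were above background on no array, and Thy1 and Loxl1 were above background on every D3 array, with a summed normalized signal of the list between 1417 and 1470 on MIN6 arrays and between 2431 and 2548 on D3 arrays. Genes of the other endocrine islet cells numbered 7, of which 4 were called higher in MIN6, among them Gcg, Sst and Ppy, and 1, Hhex, was called lower (4.31-fold), with a summed signal between 9137 and 9754 on MIN6 arrays and between 1803 and 1843 on D3 arrays. Of 9 acinar and ductal genes, 2 were higher in MIN6 cells, led by Krt7 at 28.7-fold, and 1 was lower, with a summed signal between 5971 and 7988 on MIN6 arrays and between 1541 and 1553 on D3 arrays. Krt7 was above background on only 1 D3 array, and the other higher gene was above background on no array of either line. Of 11 genes of differentiated germ layers, 1 (Pax6) was higher and 3 (Eomes, Gata6 and Nes) were lower, all named after their values were seen. Pax6 was above background on every MIN6 and no D3 array. The sums of the list lay between 1839 and 2126 on MIN6 arrays and between 1818 and 2046 on D3 arrays. The part of such cells in the Slc2a values was not tested.

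Signals were brought to a common distribution by quantile normalization and converted to log2, and differences are given as MIN6 minus D3. A gene was called at a limma adjusted p (Benjamini-Hochberg, over all probes) under 0.05 and at least 1.5-fold, and the probe of highest mean signal over the arrays stood for it. Of the 10 Slc2a genes, 3 (Slc2a2, Slc2a5 and Slc2a6) were higher in MIN6 cells, against 17.1% of all genes, and 2 (Slc2a1 and Slc2a3) were lower, against 17.5% of all genes. The other 5 did not pass. Slc2a1, Slc2a3, Slc2a4, Slc2a5, Slc2a6 and Slc2a12 had 1 probe each, so that among the called genes only Slc2a2 could be compared between probes. In either direction 5 of 10 were called, against 34.5% of all genes. On presence alone, 3 of the 10 (Slc2a2, Slc2a5 and Slc2a6) were above background on every MIN6 and no D3 array, against 5.18% of all genes, 1 (Slc2a3) on every D3 and no MIN6 array, against 5.1%, and 2 (Slc2a1 and Slc2a8) on every array of both lines, against 37.9%. The median difference of the 10 genes was -0.09 and that of all 19057 genes -0.01 on the log2 scale. The values of the 3 MIN6 and the 3 D3 arrays did not overlap for 7 of the 10 genes, against 54.4% of all genes.

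**Figure D1:**
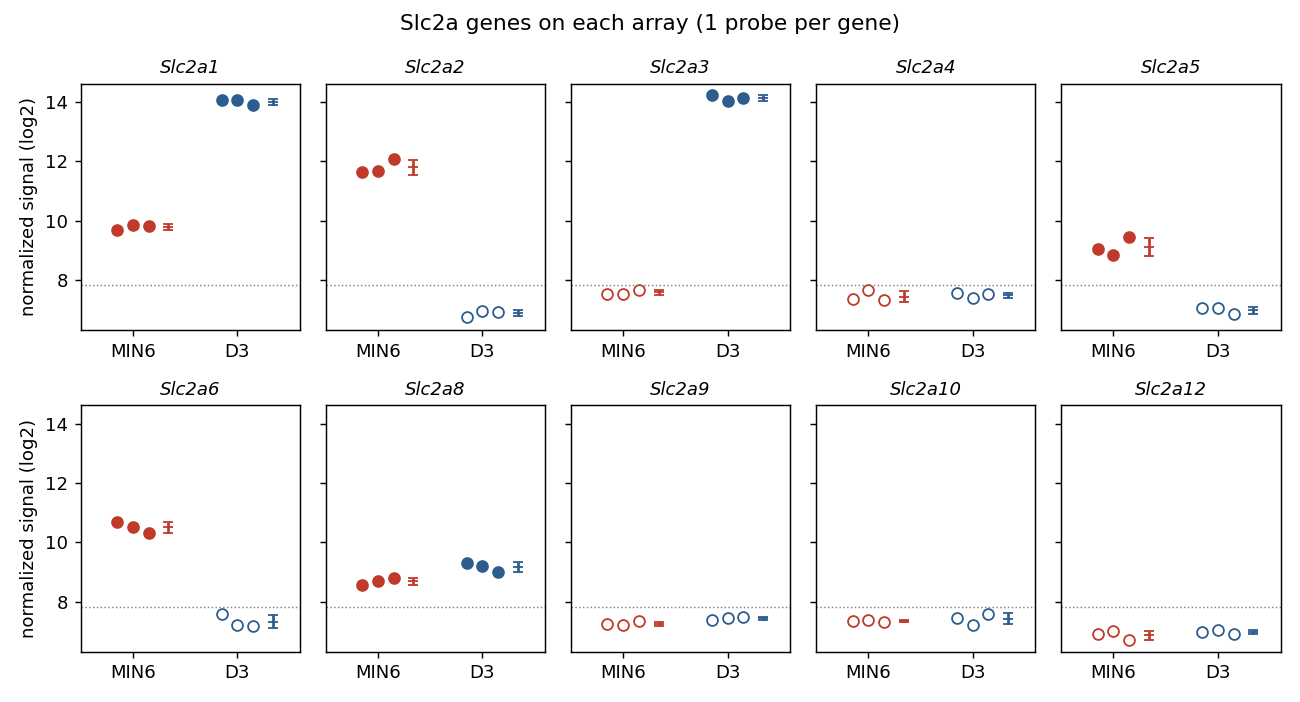
Normalized log2 signal of the representative probe of each Slc2a gene on the 3 MIN6 arrays (red, left) and the 3 D3 arrays (blue, right), with the mean and SD beside the points. Filled points were above background, open points were not, and the dotted line is the highest of the 6 arrays' lowest signals above background (7.81); Slc2a1 and Slc2a3 average 14.01 and 14.14 in D3 cells, while Slc2a2, Slc2a5 and Slc2a6 lie above the line only in MIN6 cells.

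Slc2a3, which encodes the high-affinity carrier GLUT3 of neurons and early embryos, was at background in MIN6 cells and bright in D3 cells. Its log2 signal was 7.54, 7.54 and 7.66 in MIN6 cells, against 14.23, 14.03 and 14.14 in D3 cells. The groups lay far apart, and none of the MIN6 values was above background, although their detection p-values of 0.0502, 0.0449 and 0.0203 came close to it. A fold change against a line whose arrays all lay at background is a lower bound, for which the least signal that still counted as above background stands in for the missing level. For Slc2a3 the expression in MIN6 cells was at least 84.0-fold lower than in D3 cells (limma, adjusted p = 2.56e-21). At a detection threshold of p under 0.05 the probe counted as above background on 2 of the MIN6 arrays, and its fold was then 94.2.

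Slc2a1, the gene of GLUT1, which supplies basal glucose to most dividing cells, was lower in MIN6 cells too but was measured in both lines. Its log2 signal was 9.68, 9.86 and 9.82 in MIN6 cells, against 14.08, 14.06 and 13.89 in D3 cells. Before normalization the signal intensities were 1044, 879 and 871 in MIN6 cells, against 20815, 18893 and 13630 in D3 cells. All 6 values were above background and the lines did not overlap. The mean was 9.79 ± 0.10 in MIN6 cells and 14.01 ± 0.10 in D3 cells (SD, n = 3 each), a difference of -4.22 (SE 0.10) or 18.7-fold (limma, adjusted p = 1.44e-18). In samples of whole cultures, fewer cells that express a gene and less RNA per cell cannot be told apart.

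Slc2a2, the gene of the β-cell carrier GLUT2, ran the other way. Its brightest probe, ILMN_2861259, gave log2 signals of 11.64, 11.66 and 12.09 in MIN6 cells, against 6.75, 6.95 and 6.91 in D3 cells. Each MIN6 value was above background and no D3 value was. Expression in MIN6 exceeded that in D3 by at least 16.2-fold (limma, adjusted p = 1.67e-18).
Slc2a2 had 3 further probes, and they did not all agree in size. ILMN_2604904 gave 10.10, 10.01 and 9.81 in MIN6 cells, against 6.80, 6.92 and 6.90 in D3 cells, at least 4.58-fold higher (limma, adjusted p = 2.79e-16). ILMN_2750284 gave 9.90, 9.96 and 9.69 in MIN6 cells, against 7.05, 7.0 and 6.83 in D3 cells, at least 4.20-fold higher (limma, adjusted p = 1.45e-15). The remaining probe, ILMN_2767739, was above background on no array of either line, and its values overlapped, at 7.02, 7.05 and 6.95 in MIN6 cells and 7.17, 6.90 and 7.0 in D3 cells. The mean of all 4 probes of Slc2a2 was still called higher.

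The RefSeq table used here holds promoter windows for 8 of the 10 genes (build GRCm38.p6, 250 bases before to 50 after the start of the gene), but none for Slc2a3 and Slc2a4. Those of Slc2a1, at chr4:119108495-119108794 on the plus strand, Slc2a2, at chr3:28697653-28697952 on the plus strand, and Slc2a6, at chr2:27027949-27028248 on the minus strand, are shown because they belong to a gene that was lower and to 2 genes that were higher in MIN6 cells. Capitals mark each match, on either strand, to the hypoxia element core ACGTG, the E-box CACGTG (which contains that core), the homeodomain core TAAT or the GC box GGGCGG.
Slc2a1: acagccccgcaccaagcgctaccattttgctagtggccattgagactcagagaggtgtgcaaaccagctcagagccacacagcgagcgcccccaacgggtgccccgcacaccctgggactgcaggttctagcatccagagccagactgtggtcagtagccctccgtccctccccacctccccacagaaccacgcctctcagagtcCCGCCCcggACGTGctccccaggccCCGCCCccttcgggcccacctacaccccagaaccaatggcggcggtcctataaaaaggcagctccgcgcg
Slc2a2: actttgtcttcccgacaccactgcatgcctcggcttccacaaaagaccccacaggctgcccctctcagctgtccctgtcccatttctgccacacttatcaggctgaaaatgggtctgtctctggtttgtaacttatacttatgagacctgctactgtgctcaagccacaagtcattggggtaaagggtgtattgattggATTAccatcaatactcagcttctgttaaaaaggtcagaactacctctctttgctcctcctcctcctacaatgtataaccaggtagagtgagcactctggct
Slc2a6: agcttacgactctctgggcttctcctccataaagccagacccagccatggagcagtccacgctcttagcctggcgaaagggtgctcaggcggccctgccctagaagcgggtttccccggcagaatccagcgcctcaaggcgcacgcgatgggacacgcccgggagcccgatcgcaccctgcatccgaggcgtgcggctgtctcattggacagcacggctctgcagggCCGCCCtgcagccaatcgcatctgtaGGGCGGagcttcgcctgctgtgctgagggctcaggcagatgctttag
The Slc2a1 window held 1 match to the hypoxia core and 2 to the GC box, the Slc2a2 window a single match, to the homeodomain core, and the Slc2a6 window 2 to the GC box. Of the 32851 windows of this length in the table, 19.6% held the hypoxia core, 7.15% the E-box, 58.0% the homeodomain core and 35.7% the GC box. The G and C bases made up 65.3% of the Slc2a1 window with 18 CpG dinucleotides, 48.0% of the Slc2a2 window with 2 CpGs and 64.7% of the Slc2a6 window with 22 CpGs, against a median of 52.7% and 7 CpGs over all windows. Slc2a5, which was also higher in MIN6 cells, had 65.3% and 15 CpGs, so that the genes higher in MIN6 cells did not share a base composition. The other windows of the family held between 2 and 14 CpGs. The window of Slc2a10, a gene not called, held the same matches as that of Slc2a1, 1 to the hypoxia core and 2 to the GC box, that of Slc2a5 held 3 to the GC box, those of Slc2a8 and Slc2a9 held 1 each to the homeodomain core, and that of Slc2a12 held none. These matches describe the letters of the windows, and no binding was measured.

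Slc2a4, the gene of the insulin-responsive carrier GLUT4 of muscle and fat, was above background on no array. Its log2 signal was 7.34, 7.65 and 7.31 in MIN6 cells, against 7.55, 7.39 and 7.52 in D3 cells. The values overlapped and the difference of -0.05 (SE 0.11) did not pass the test (limma, adjusted p = 0.783). No fold is given for it, since both lines lay at background.

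Among the carriers of other substrates, Slc2a5, the gene of the fructose carrier GLUT5, was higher in MIN6 cells. Its log2 signal was 9.04, 8.83 and 9.44 in MIN6 cells, against 7.04, 7.04 and 6.84 in D3 cells. It was above background on every MIN6 and no D3 array, without overlap, and at least 2.50-fold higher (limma, adjusted p = 6.53e-12). The spread between the MIN6 samples, at an SD of 0.31 on the log2 scale, was the widest of the 10 representative probes.
Slc2a9 encodes GLUT9, known as a carrier of urate. Its representative probe, ILMN_2554301, gave 7.23, 7.20 and 7.33 in MIN6 cells, against 7.39, 7.44 and 7.47 in D3 cells, none above background, and the difference of -0.18 did not pass the test (limma, adjusted p = 0.159). Of its 3 further probes, ILMN_2682223 gave 7.78, 7.46 and 7.5 in MIN6 cells, against 7.26, 6.79 and 7.23 in D3 cells. There the lines did not overlap and the adjusted p was 0.00281 (limma), but the difference of 0.48 on the log2 scale was under 1.5-fold and only 1 MIN6 array was above background. The other probes of Slc2a9 were above background on no array. The probes of Slc2a9 thus pointed in different directions, and none was called.

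The remaining genes encode carriers that are found largely on membranes inside the cell or are less well studied. Slc2a6, the gene of GLUT6, was higher in MIN6 cells, with log2 signals of 10.70, 10.50 and 10.32, against 7.58, 7.22 and 7.17 in D3 cells. The lines did not overlap, and MIN6 expression was at least 6.62-fold higher (limma, adjusted p = 3.51e-15). No D3 array was above background, but D3 replicate 1 came nearest, at a detection p of 0.0289.
Slc2a8 encodes GLUT8, a carrier held on inner membranes that is also known from the mouse blastocyst. Its brightest probe, ILMN_1213148, gave 8.56, 8.69 and 8.79 in MIN6 cells, against 9.31, 9.19 and 8.98 in D3 cells, all above background. The lines did not overlap, and the difference of -0.48 (SE 0.11) passed the p threshold (limma, adjusted p = 7.22e-04) but, at 1.40-fold, not the fold threshold. With normexp background correction it was called lower, at 1.57-fold (limma, adjusted p = 0.00745). With median scaling it was 1.22-fold lower and did not pass the p threshold (limma, adjusted p = 0.0595). The mean of all probes of Slc2a8 differed by -0.13 and did not pass it either (limma, adjusted p = 0.159). The other 2 probes of Slc2a8 were above background on no array and their differences, of -0.02 and 0.11, did not pass the test.
Slc2a10, whose loss causes arterial tortuosity syndrome in humans, was represented by a probe at 7.36, 7.38 and 7.31 in MIN6 cells, against 7.46, 7.22 and 7.60 in D3 cells. Slc2a12, the gene of GLUT12, gave 6.90, 7.0 and 6.69 in MIN6 cells, against 6.97, 7.03 and 6.92 in D3 cells. The other probe of Slc2a10, ILMN_2956726, differed by -0.13 on the log2 scale and was also above background on no array. Both genes overlapped between the lines and neither was above background on any array. Their differences were -0.07 and -0.11, with limma adjusted p-values of 0.670 and 0.484. Together with Slc2a4, they are the 3 genes of the family without a value above background by any probe. In 43% of all genes the representative probe was above background on no array, against 4 of the 10 here.

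**Figure D2:**
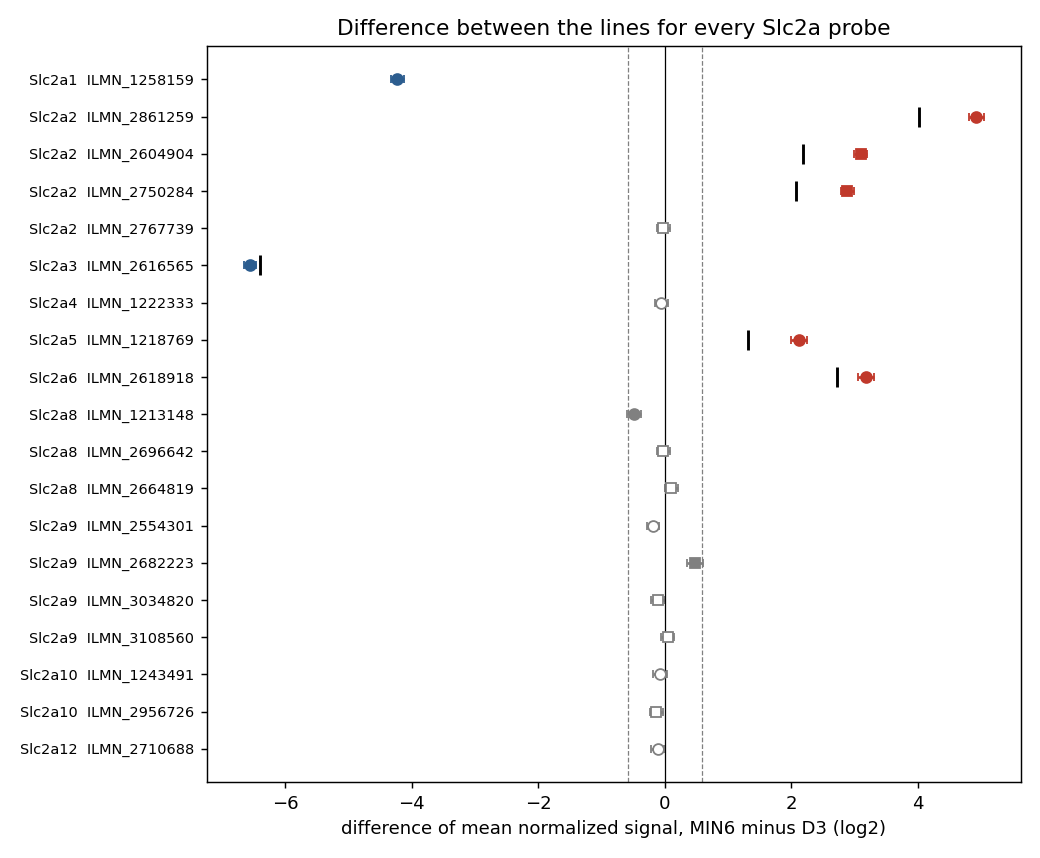
Difference of mean normalized log2 signal, MIN6 minus D3, with its standard error, for all 19 probes of the 10 Slc2a genes (circles, representative probes; squares, other probes; red, called higher in MIN6; blue, called lower; grey, not called; open, above background on no array). Black ticks are the lower bounds of probes at background in 1 of the lines, and dashed lines mark 1.5-fold; 5 probes were called higher and 2 lower, and the 4 Slc2a2 probes run between -0.02 and 4.93.

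Over the 19 probes, 5 were called higher and 2 lower in MIN6 cells, against 12.5% and 13.4% of all probes, and against 25.9% of all probes in either direction. The lines did not overlap for 10 of the 19 probes, against 46.1% of all probes. The 12 others were not called, and 10 of them were above background on no array. The bounds depended on the processing. In the authors' processed values the fitted folds, which are not bounds, were 66.5-fold lower for Slc2a3 and 16.03-fold, 2.67-fold and 5.63-fold higher for Slc2a2 (ILMN_2861259), Slc2a5 and Slc2a6, so that those of Slc2a3, Slc2a2 and Slc2a6 lay under the bounds given above. With normexp the bounds became at least 191-fold lower for Slc2a3 and at least 34.8-fold, 4.32-fold and 13.5-fold higher for Slc2a2 (ILMN_2861259), Slc2a5 and Slc2a6. Replicates spread little beside the differences of the called genes. The SD of the representative probes was between 0.04 and 0.31 on the log2 scale in MIN6 cells and between 0.04 and 0.23 in D3 cells.
The genes with profiles most like those of Slc2a1, Slc2a2 and Slc2a3 were found by the root mean square distance of centred log2 signals over the 6 arrays, among 9865 genes above background on every array of at least 1 line. Since the arrays fall into 2 groups, this distance mostly matches the size of the difference between the lines, and for Slc2a2 and Slc2a3 it includes values at background. Nearest to Slc2a1 were Acot1, Fgf17 and Sult6b1, at distances of 0.064, 0.085 and 0.095. Nearest to Slc2a2 were Rit2, Cnrip1 and Slc40a1, at 0.077, 0.12 and 0.12. Nearest to Slc2a3 were Grb10, Sall4 and Dnmt3l, at 0.073, 0.079 and 0.081. Genes were compared by their representative probes alone, and other probes of these nearest genes gave smaller differences. Those of Rit2 and Slc40a1 were above background on no array. The other probe of Cnrip1 differed by 2.37 and that of Dnmt3l by -6.47 on the log2 scale.

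Other genes of sugar entry and use were counted in 6 lists, against the 34.5% of all genes that were called. Of 12 other sugar transporters, 2 were higher in MIN6 cells, 3 were lower and 7 did not pass, with a median difference of 0.09. With normexp 8 of the 12 were called, against 40.8% of all genes. In the list 8 genes were above background on no array, against 43% of all genes. All 7 that did not pass were among them, so that a difference could not be measured for them or for those that normexp added. Slc2a13, a close relative that encodes the proton-coupled myo-inositol carrier HMIT, gave 9.15, 9.17 and 9.09 in MIN6 cells, against 7.06, 7.04 and 7.01 in D3 cells. It was above background on MIN6 arrays alone and at least 2.56-fold higher (limma, adjusted p = 5.31e-14). Of its other probes, ILMN_2925424 was at least 1.94-fold higher and ILMN_1217954 was above background on no array. Slc50a1, a sugar carrier of another family, was 4.36-fold higher, with means of 11.62 ± 0.16 in MIN6 cells and 9.50 ± 0.18 in D3 cells (SD, n = 3 each). Slc45a4 was 2.75-fold lower by its representative probe, and another probe of it, ILMN_1232055, above background on every array, differed by -0.55 on the log2 scale and was not called. The sodium-coupled carrier gene Slc5a11 was at least 1.51-fold lower, with no MIN6 array above background. Also called lower was Slc5a4b, named after its values were seen, which was above background on no array and has no fold.

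For the vesicles that carry GLUT4 in muscle and fat, 6 of 18 genes were higher, 1 (Aspscr1, named after its values were seen) was lower and 11 did not pass, with a median difference of 0.37. With normexp 11 of the 18 were called, against 40.8% of all genes. Of the 18, 5 were above background on no array. Exoc7, an exocyst subunit, was 6.02-fold higher, and Vamp2, a SNARE of vesicle fusion shared with insulin granules, 5.16-fold higher. Sort1, the sorting receptor sortilin, was 5.0-fold higher and the SNARE gene Vamp3 1.80-fold higher. All 4 were above background on every array, while Slc2a4 itself was above background on none. Of the other Sort1 probes, 1 was called higher and 2, with log2 differences of 0.32 and 0.37, were not.
Among genes that act on hexoses just after entry, 5 of 10 were higher in MIN6 cells, 1 was lower and 4 did not pass, with a median difference of 0.33. Of these 10, 3 were above background on no array. G6pc2, the islet glucose-6-phosphatase subunit, was at least 106-fold higher. G6pc3, its ubiquitous relative, was 2.72-fold higher and Slc37a4, the glucose-6-phosphate carrier of the endoplasmic reticulum, 2.68-fold higher, though it was above background on only 1 D3 array. Hk1, which encodes a hexokinase of high affinity, was at least 2.04-fold lower, with no MIN6 array above background. Khk, named after its values were seen, encodes ketohexokinase, the first enzyme of fructose use, and was 2.08-fold higher.

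Of 23 regulators of Slc2a genes, 7 were higher in MIN6 cells, 5 were lower and 11 did not pass, with a median difference of -0.06. Of the 23, 4 were above background on no array. Pdx1, a homeodomain factor that is known to act on the Slc2a2 promoter, was at least 32.7-fold higher, and Mlxipl, the glucose-responsive factor ChREBP, 24.9-fold higher. Foxa2, a forkhead factor of endoderm, was at least 5.60-fold higher and Srebf1, a factor of lipid synthesis, 7.21-fold higher, though it was above background on only 2 D3 arrays. Txnip and Arrdc4, arrestin relatives that lower glucose uptake and were named after their values were seen, were 3.35-fold and 4.78-fold lower.
Txnip gave a mean of 11.62 in MIN6 cells and 13.37 in D3 cells. Hif1a, a factor known to raise Slc2a1 and Slc2a3 at low oxygen and also named after its values were seen, was 1.47-fold lower in MIN6 cells (limma, adjusted p = 7.37e-05). That was just under the fold threshold, and it was not called. Called lower by their representative probes, and named after their values were seen, were Gipc1 (2.06-fold), Arnt (1.65-fold) and Sp1 (2.35-fold). Of the other Gipc1 probes, ILMN_1254924 and ILMN_2594419 were also called lower. ILMN_2942573, above background on every array, differed by 0.18 on the log2 scale and was not called. Of the other Arnt probes only ILMN_2728802 was called, also lower, and ILMN_1231986, above background on every array, differed by -0.20. The part of these regulators in the Slc2a differences was not tested.
For lactate export, 1 of 8 genes was higher, 3 were lower and 4 did not pass, with a median difference of -0.03. All 4 that did not pass were above background on no array, so that a difference could not be measured for them. Ldha, which makes lactate from pyruvate, was 21.7-fold lower, with means of 10.10 ± 0.08 in MIN6 cells and 14.54 ± 0.05 in D3 cells (SD, n = 3 each). Slc16a3, a lactate exporter, was at least 1.43-fold lower, and Ldhb at least 1.47-fold lower. Emb, an ancillary protein of such exporters, was 2.44-fold higher. None of 8 genes of urate and ascorbate handling was called (limma; Xdh, named after its values were seen, had an adjusted p of 0.0436 and an unadjusted p under 0.05 but a difference under 1.5-fold), and 7 of them were above background on no array.

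**Figure D3:**
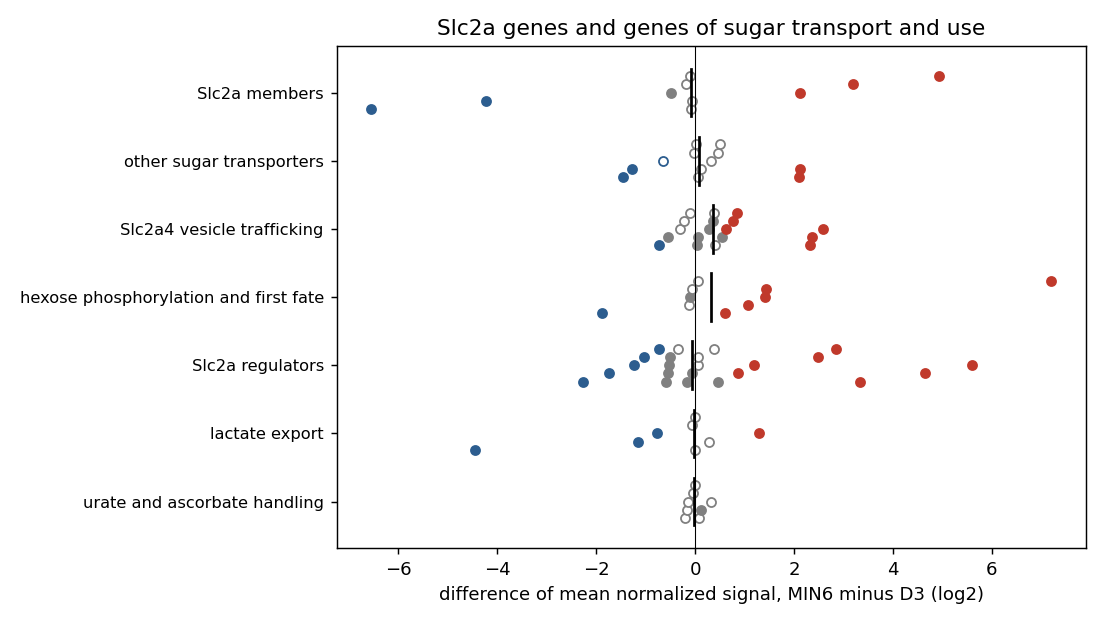
Difference of mean normalized log2 signal, MIN6 minus D3, for the 10 Slc2a genes and for the genes of the 6 lists (red, called higher in MIN6; blue, called lower; grey, not called; open, above background on no array; black bars, medians). The fitted values of the Slc2a genes run between -6.56 and 4.93, where a line at background makes them no measured fold, around a median of -0.09.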

How the data were processed

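Total RNA of 3 MIN6 and 3 D3 samples was labelled with biotin and read on Mouse WG-6 v2.0 BeadChips from Illumina. The deposited signal intensities were used as the authors gave them, on a linear scale, neither normalized nor background-subtracted. A detection score, also deposited for each probe, rises to 1 with the signal, and 1 minus that score was used as the detection p, with a probe above background at p under 0.01. The authors' processed values, quantile-normalized with lumi and here taken as log2 values because they correlated with log2 of the normalized intensities (r = 0.994 for D3 replicate 1), served as an alternative only. The sources used here do not name the scanner software.

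Intensities were quantile-normalized, taken to log2 and fitted with limma 3.58.1 in R 4.3.3 (lmFit and eBayes) over all 45281 probes, with Benjamini-Hochberg adjustment over all of them, and called where the adjusted p was under 0.05 with a change of 1.5-fold or more. A p over the samples by exact permutation could not go below 0.1 with 3 against 3. Probes were named from the platform annotation, which gave 34885 probes 1 gene symbol, 18 several and 10378 none, and symbols were updated through RefSeq. Only probes with 1 symbol named a gene. For a probe above background on no array of a line, the bound compares the brighter line's mean with the mean, per array, of the higher of the lowest signal above background and the probe's own. No fold is given where neither line was above background.

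The members and lists were chosen with earlier results of these data known. The text names all members, up to 4 called genes per list with the largest change among genes above background on every array of at least 1 line, 4 label checks and the 3 nearest profiles of Slc2a1, Slc2a2 and Slc2a3. Other genes are named as chosen after their values were seen. Promoter windows came from RefSeq (GRCm38.p6). The fit was tested on simulated data of 45281 probes for MIN6 against D3, where 15 of 50 changes of 1.5-fold, 43 of 50 of 2-fold and all 50 each of 4-fold and 8-fold were called. Of the unchanged probes 3 were called. Both simulated lines took their means and SDs from D3 cells, and changes were placed only in probes above background on every D3 array. The recovery of changes in probes at background in D3 cells was thus not tested. Alternatives covered background correction, normalization, filters on dim probes, thresholds, tests, the probe of a gene, the replicate block and leaving out each array. The number of arrays limits the precision.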

Additional observations from a re-analysis of the deposited data

How the results depend on the processing

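Of the 10 Slc2a genes 5 were called under every alternative run except normexp background correction and no fold threshold, which called 6 by adding Slc2a8 as lower. Slc2a9 probe ILMN_2682223 was then called higher too (log2 difference 0.93, limma adjusted p = 0.0157 with normexp). Over all probes 11717 were called, against 17980 with no fold threshold, 7177 at 2-fold or more, and between 11680 and 11840 leaving out 1 array. With normexp 8 other sugar transporters (5 without it) and 11 vesicle genes (7 without it) were called. The sugar transporters that normexp added were above background on no array. The bounds moved with the definition of background. At a detection p under 0.05 the log2 values were 4.26, 2.44 and 2.32 for Slc2a2 probes ILMN_2861259, ILMN_2604904 and ILMN_2750284, 1.57 for Slc2a5 and, as folds because arrays of both lines then passed, -6.56 for Slc2a3 and 3.18 for Slc2a6. With normexp they were 5.12, 3.16 and 3.02 for the same Slc2a2 probes, 2.11 for Slc2a5, -7.58 for Slc2a3 and 3.75 for Slc2a6. For probes still at background in 1 line, the looser detection threshold lowers the least signal above background, which raises the bound by construction. Why normexp moved the bounds was not tested. Leaving out 1 array, the log2 difference lay between -4.28 and -4.16 for Slc2a1, 4.77 and 5.0 for Slc2a2 probe ILMN_2861259, -6.62 and -6.48 for Slc2a3, 1.93 and 2.26 for Slc2a5, and 3.07 and 3.31 for Slc2a6. The authors' processed values gave -6.06 for Slc2a3, 4.0 for Slc2a2 probe ILMN_2861259, 1.42 for Slc2a5 and 2.49 for Slc2a6. The representative probes of Slc2a4, Slc2a9, Slc2a10 and Slc2a12 were not above background on any array, and a difference between the lines could not be measured for them.

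Deviations of samples that share a replicate number were nearly uncorrelated between the lines, at 0.0099, -0.0028 and -0.023. Those of different numbers lay between -0.017 and 0.019. These correlations run over all probes, most of them at background on each array, and cannot exclude a pairing of the samples. With the replicate number as a block 11717 probes were called, and the same 7 Slc2a probes. In this balanced design the block leaves every difference unchanged, so that these counts say little about pairing. A slide block was not run, as the files used here name no slide.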
